A study of Mus musculus with 2 samples.

Results

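The genes described here are the 7 that encode the cytokine subunits of the IL-12 family and the chains of the IL-12 receptor: Il12a, Il12b, Il23a, Il27, Ebi3, Il12rb1 and Il12rb2. They were picked by symbol, and each is 1 row of the 32285 genes counted in both libraries. They are followed across dendritic, myeloid, T and NK cells that infiltrated GL261 gliomas, tumours grown from a mouse glioma line in the brains of mice. One library came from wild-type mice and the other from mice labelled Fcgr2b knockout, which are meant to lack the inhibitory IgG Fc receptor FcγRIIB. Both groups had the tumour and both received 200 µg of anti-PD-1, an antibody to the checkpoint receptor PD-1, by intraperitoneal injection on days 10, 13 and 16. Brains were taken on day 20, cells of 5 brains were pooled per group, and living CD45.2-positive cells were sorted and counted with a droplet 5′ single-cell RNA assay. The labels give no strain, sex or age, and there was no group without tumour or without anti-PD-1.

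Each genotype is 1 library of pooled animals, so no difference between genotypes has a replicate check and none was tested. Intervals below are exact 95% intervals that cover counting error only. The deposited tables held 14170828 UMIs (unique molecular identifiers, single counted RNA molecules) for the wild-type library and 50921793 for the other. After filtering, 3538 wild-type cells and 8145 cells of the knockout-labelled library (knockout-labelled cells below) were kept, with medians of 2598 and 3951 UMIs per cell, and 37 kept barcodes occurred in both. Fcgr2b itself was counted in both libraries: macrophages or monocytes held 373 CPM (counts scaled to 1000000 UMIs of the class; interval 338 to 411) in wild-type cells and 249 CPM (241 to 257) in knockout-labelled cells. Fcgr2b counts therefore do not check the genotype label. The labels also differ in molecule (polyA RNA for wild-type, total RNA for the knockout), and the sort protocol names lung although the tissue is labelled brain. The mix of cells differed as well: macrophages or monocytes numbered 339 and 3566, while NK cells were 797 and 374.

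IL-12 family cytokines are secreted pairs made of one α subunit and one β subunit. IL-12 pairs p35 (Il12a) with p40 (Il12b), and IL-23 pairs p19 (Il23a) with the same p40. IL-27 pairs p28 (Il27) with EBI3 (Ebi3), and IL-35 has been described as p35 with EBI3. IL-12 from dendritic cells drives interferon-γ production by T and NK cells through a receptor built of IL-12Rβ1 (Il12rb1) and IL-12Rβ2 (Il12rb2), which signals mainly through STAT4. IL-23 uses IL-12Rβ1 with IL-23R and signals mainly through STAT3 in IL-17-producing cells, and IL-27 uses IL-27Rα (Il27ra) with gp130 (Il6st). In tumours, IL-12 from dendritic cells is known as a link between interferon-γ and the response to anti-PD-1.

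The genes lie on GRCm38 at chr3:68690644-68698547 (Il12a, plus strand), chr11:44400063-44414033 (Il12b, plus), chr10:128296139-128298752 (Il23a, minus), chr7:126589010-126594941 (Il27, minus), chr17:55952640-55957022 (Ebi3, plus), chr8:70808449-70821424 (Il12rb1, plus) and chr6:67291318-67376188 (Il12rb2, minus). All 7 are protein-coding in the GENCODE M21 annotation. Il27 overlaps Apobr, Ebi3 overlaps Gm16712 and Il12rb2 overlaps Serbp1, in each case on the opposite strand, and no member overlaps another gene on its own strand. No source used here says whether strand was used in counting.

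Promoters of 4 of the 7 members were in the RefSeq table for GRCm38.p6, and 3 are shown because the library and cell comparisons below turn most on these genes. Each is the 250 bases before the start of transcription, read 5′ to 3′ on the gene's strand, with capitals marking matches to the motifs searched on both strands.
Ebi3 at chr17:55952373-55952622, plus strand: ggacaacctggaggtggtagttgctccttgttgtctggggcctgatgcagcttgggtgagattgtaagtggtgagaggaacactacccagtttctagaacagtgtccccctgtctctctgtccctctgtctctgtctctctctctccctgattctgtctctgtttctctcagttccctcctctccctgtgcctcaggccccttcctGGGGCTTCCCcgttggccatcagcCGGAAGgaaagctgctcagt
Il12rb2 at chr6:67376189-67376438, minus strand: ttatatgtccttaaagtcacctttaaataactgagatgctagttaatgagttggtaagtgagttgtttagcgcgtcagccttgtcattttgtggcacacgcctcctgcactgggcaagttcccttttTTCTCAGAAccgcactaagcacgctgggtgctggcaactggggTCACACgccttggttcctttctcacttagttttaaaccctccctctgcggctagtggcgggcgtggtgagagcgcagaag
Il12b at chr11:44399813-44400062, plus strand: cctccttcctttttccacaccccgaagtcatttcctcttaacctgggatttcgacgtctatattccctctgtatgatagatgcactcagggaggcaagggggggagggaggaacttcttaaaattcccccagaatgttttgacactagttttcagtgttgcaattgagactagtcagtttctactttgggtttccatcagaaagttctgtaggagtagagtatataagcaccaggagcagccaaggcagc
The Ebi3 promoter held an NF-kB motif (GGGGCTTCCC) that begins 44 bases before the start and an ETS core (CGGAAG) that begins 20 bases before it. The NF-kB motif occurred in 7.25% and the ETS core in 13.6% of 32851 promoters of the same length. RefSeq places the Ebi3 start 17 bases upstream of the GENCODE start. The Il12rb2 promoter held a STAT-type GAS element (TTCTCAGAA, a match to TTCNNNGAA, found in 7.02% of promoters) 123 bases before the start and a T-box core (TCACAC, found in 12.3%) 80 bases before it. The Il12b promoter held no exact match to the 8 motif patterns searched. These were the 4 above and AP-1 (TGANTCA, 6.75%), an interferon response core (GAAANNGAA, 7.13%), a TATA box (TATAAA, 12.4%) and C/EBP (TTGCNNAA, 9.56%). Matches describe letters in the windows and do not show binding. The lack of an exact match does not show that a promoter lacks such an element, since variants of a pattern were not searched.

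Cells were grouped by clustering, with the 7 genes, their partner chains and pathway genes left out of the clustering, and classes were named from marker lists. All class names below mean cells resembling that type by these markers. Levels are CPM of the summed class, for classes of 20 or more cells. The 7 genes divided by role. The cytokine subunits were found mainly in dendritic and myeloid cells, except Ebi3, which was also found in CD4 T cells, and the receptor chains were found mainly in T and NK cells.

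**Figure D1:**
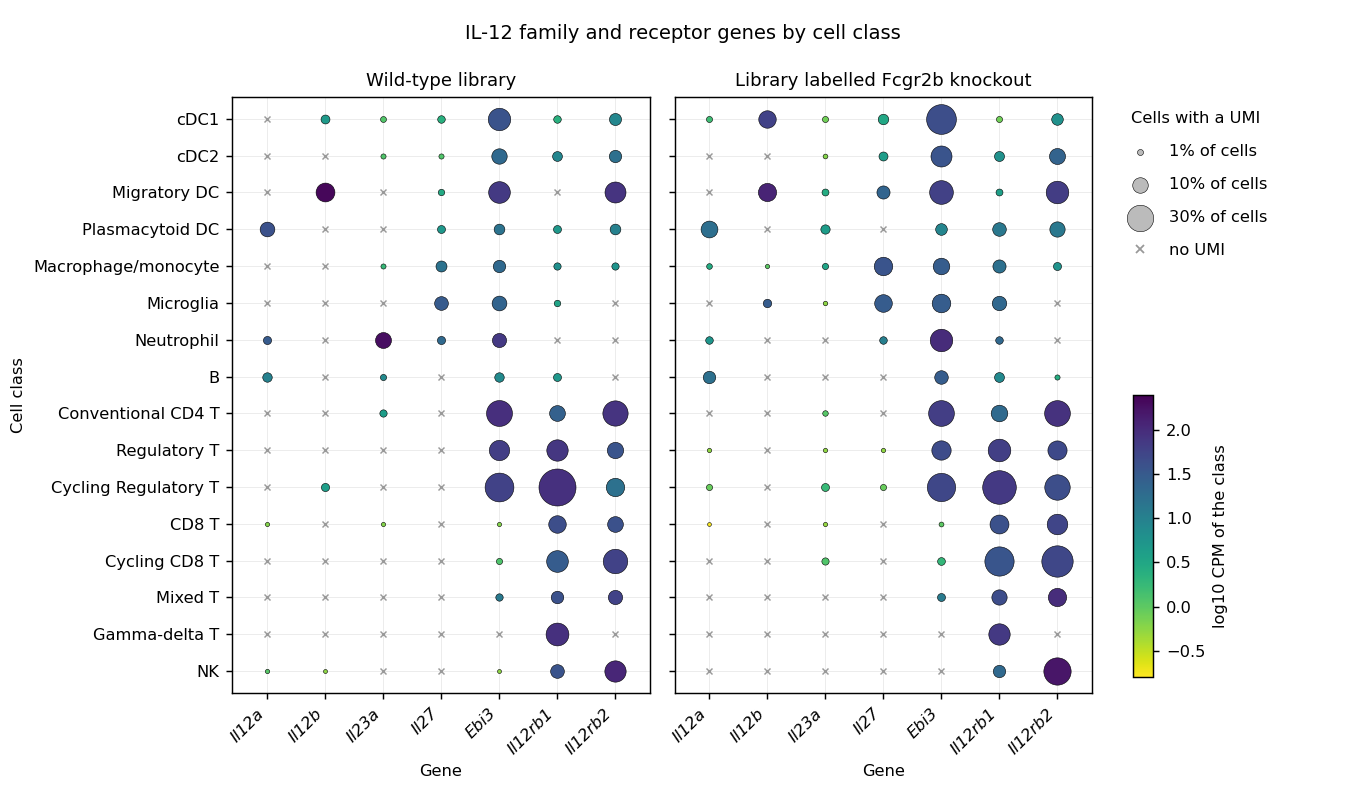
Dot plot of the 7 genes (columns) in 16 cell classes (rows) of each library; colour is log10 CPM of the class, dot area the percent of cells with a UMI, and crosses mark classes with no UMI. Il12b is darkest in migratory dendritic cells. Il27 is darkest in microglia in the wild-type panel, where neutrophils (21.0 CPM from 2 UMIs) come next, and in macrophages or monocytes in the other panel. Il12rb1 is darkest in γδ and cycling regulatory T cells and Il12rb2 in NK cells, with migratory dendritic cells (83.0 and 67.9 CPM) also dark for Il12rb2.

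Library ratios were read in 13 classes, those with 50 or more cells on both sides, which gives 91 gene and class pairs. Of these, 40 had at least 10 UMIs over both libraries. With 10 CPM added to both levels, 6 of the 40 pairs were at least 2-fold apart: 5 were higher in the knockout-labelled library (Il12b in type 1 conventional dendritic cells and microglia, Il27 in migratory dendritic cells, Ebi3 in B cells, Il12rb1 in microglia) and 1 was lower (Il23a in neutrophils). Wherever a pair of values is given, the wild-type value stands first. Each class is set against the share of all its genes past the same threshold.

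Among myeloid classes, 0 of 7 members passed in macrophages or monocytes, where 5.45% of all genes did. In microglia 2 of 4 members passed, against 5.44% of genes. In neutrophils 1 of 2 members passed, against 33% of genes, so a change of this size was common there. Among dendritic classes, 1 of 3 members passed in type 1 conventional dendritic cells (background 2.55%), 0 of 3 in type 2 conventional dendritic cells (4.95%) and 1 of 4 in migratory dendritic cells (6.69%). In B cells 1 of 2 members passed, against 8.37%. No member passed in the T and NK classes that were compared: 0 of 2 in CD8 T cells (background 1.08%), 0 of 2 in cycling CD8 T cells (1.98%), 0 of 3 in conventional CD4 T cells (0.999%), 0 of 3 in regulatory T cells (1.83%), 0 of 3 in mixed T cells (3.21%) and 0 of 2 in NK cells (1.44%). Cycling regulatory T cells and γδ T cells were not compared, with 42 and 36 wild-type cells. The count of 6 pairs depended on the added value: it was 10 with 1 CPM added and 2 with 50 CPM added.

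**Figure D2:**
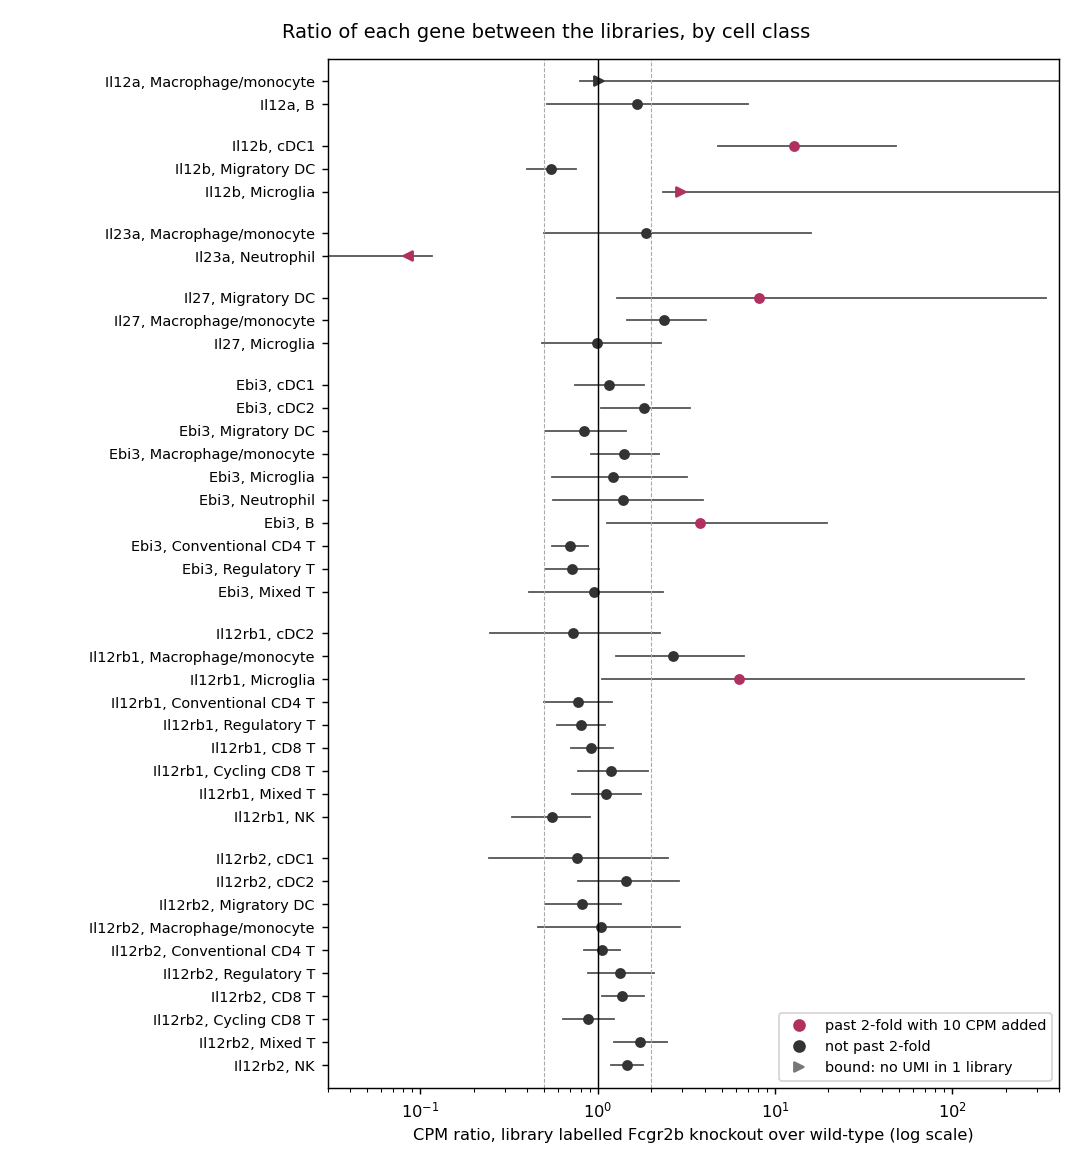
CPM ratio of the knockout-labelled over the wild-type library (log axis) for the gene and class pairs with at least 10 UMIs, with 95% counting intervals; triangles are bounds where 1 library had no UMI, and dashed lines mark 2-fold. Il12b in macrophages or monocytes is left out because its level was under the floor of 3 counts; Il12b in type 1 conventional dendritic cells, at 12.7, stands farthest to the right among the ratios that are not bounds.

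Il12a, the p35 subunit of IL-12, was the rarest of the 7, with 18 UMIs in wild-type cells and 77 in knockout-labelled cells. Plasmacytoid dendritic cells, the main producers of type I interferon, held 40.02 CPM (interval 17.3 to 78.9; 8 UMIs in 4 of 45 cells) in wild-type cells and 17.5 CPM (9.03 to 30.5; 12 UMIs in 11 of 93 cells) in knockout-labelled cells. The intervals of the 2 libraries overlapped. B cells held 10.3 CPM (4 UMIs) and 17.2 CPM (13 UMIs), a ratio of 1.67 (0.517 to 7.04). Macrophages or monocytes held 0 UMIs in the wild-type library, which allows up to 2.74 CPM (3 counts), and 46 UMIs at 2.77 CPM in knockout-labelled cells, so a difference was not detectable at this depth. Il12a UMIs were not found in migratory dendritic cells of either library, the class with most Il12b. At these levels, order among plasmacytoid dendritic cells, B cells and neutrophils could not be read in the wild-type library, where the neutrophil value rests on 3 UMIs.

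Il12b encodes p40, the subunit shared by IL-12 and IL-23, and was found in few cells: 17 cells with 81 UMIs in wild-type cells and 46 cells with 238 UMIs in knockout-labelled cells. In the wild-type library 91.4% of its UMIs lay in migratory dendritic cells, the Ccr7-bearing mature cells that carry antigen to lymph nodes. In the knockout-labelled library 37.8% lay in migratory dendritic cells, 31.9% in type 1 conventional dendritic cells and 23.1% in microglia. NK cells, used as a class that should lack the gene, had 1 positive cell of 797 (0.125%) and 0 of 374 (which allows up to 0.802%), at median depths of 1828 and 2479 UMIs.

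In migratory dendritic cells Il12b stood at 219 CPM (172 to 275; 74 UMIs) in wild-type cells and 120 CPM (96.4 to 147; 90 UMIs) in knockout-labelled cells. The share of cells with a UMI was alike, 15% (12 of 80) and 14.0% (18 of 129), at median depths of 3846 and 4972 UMIs, and 13.9% and 9.40% with each cell thinned to 1500 UMIs. The ratio of 0.546 (0.397 to 0.753) leaned on single cells: 1 wild-type cell held 35 of the 74 UMIs, and the highest cell of the other library held 20. Without the highest cell of each library the levels were 119 and 95.3 CPM, a ratio of 0.80. With cells chosen by Ccr7 and Fscn1 UMIs in place of the cluster, the ratio was 1.18, on the other side of 1. Within the class, cells with both markers held 24 Il12b UMIs in 8 of 66 cells and 72 in 16 of 92 cells, a ratio of 1.49 (0.928 to 2.47). The wild-type cell with 35 UMIs had 94 Ccr7 UMIs and no Fscn1 UMI.

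The Il12b-positive migratory cells carried the class markers: Ccr7 was found in 10 of 12 wild-type cells and in 18 of 18 of the other library. Cd40, the receptor through which T cells signal to dendritic cells, was at 445 CPM in Il12b-positive and 344 CPM in the other migratory cells of the wild-type library. In the knockout-labelled library the corresponding Cd40 levels were 702 and 378 CPM. The positive cells were also deeper, with median depths of 4386 against 3767 UMIs in wild-type cells and 6547 against 4592 in knockout-labelled cells. Macrophage markers in this class summed to 35.6 CPM in the wild-type library, with 8 of 10 markers at 0, and to 341 CPM in knockout-labelled cells, and their part in the Il12b values was not tested.

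Type 1 conventional dendritic cells (cDC1), which cross-present antigen to CD8 T cells, had the highest Il12b ratio that is not a bound. Il12b stood at 4.68 CPM (1.27 to 11.97; 4 UMIs in 3 of 103 cells) in wild-type cells and 59.5 CPM (46.9 to 74.5; 76 UMIs in 12 of 94 cells) in knockout-labelled cells. The 3 highest cells of the knockout-labelled library held 23, 20 and 9 UMIs, while no wild-type cell held more than 2. The ratio was 12.7 (4.77 to 47.9), and 17.7 without the highest cell of each library. The shares were 2.91% and 12.8% at median depths of 8033 and 12383 UMIs. With cells thinned to 1500 UMIs they were 1.00% (0.0253 to 5.45; 1 of 100 cells) and 4.30% (1.18 to 10.6; 4 of 93 cells), with overlapping intervals.

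The 12 positive cDC1 of the knockout-labelled library looked like cDC1 by their markers. Xcr1 was found in 11 of 12, Clec9a in 11 of 12 and Flt3 in 12 of 12, and the macrophage gene C1qa in 0 of 12. Ccr7 was found in 2 of them, and these 2 cells held 29 of the 76 Il12b UMIs. Without any cell with a Ccr7 UMI the Il12b ratio was 16.8, from 2 UMIs in 95 cells against 47 UMIs in 82 cells. Removal of likely doublets bore on the size of the difference. Among barcodes removed as doublets, 2 wild-type cells grouped with cDC1 held 9 Il12b UMIs, more than the 4 in the kept cells, and without doublet removal the ratio was 3.82 (13.9 against 53.2 CPM).

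Microglia, the resident macrophages of the brain, held no Il12b UMI in 78 wild-type cells, which allows up to 10.3 CPM. In the knockout-labelled library they held 55 UMIs in 8 of 315 cells, 30.6 CPM (23.0 to 39.8), at least 2.95-fold higher when the wild-type level is set at 3 counts. The 3 highest cells had 19, 14 and 14 UMIs, and the bound was 1.91 without the highest cell. The positive cells carried the microglial gene Tmem119, at 396 CPM against 482 CPM in the other microglia, while P2ry12 was at 82.9 against 291 CPM. Of the dendritic genes, Xcr1, Clec9a, Flt3 and Zbtb46 were at 0 in them, and at most 1.18 CPM in the other microglia. Ccr7 and Ccl22 (1 UMI each) were at 9.21 against 2.96 CPM, Wdfy4 at 46.1 against 37.3 CPM and Fscn1 at 46.1 against 86.9 CPM. They were deeper than the other microglia (median 11485 against 4412 UMIs) and had a higher median doublet score (0.61 against 0.44), and the part of either in the result was not tested. Macrophages or monocytes of the knockout-labelled library held 17 Il12b UMIs, of which 16 lay in cluster M07, led by Ms4a7, Apoe and Apoc2. Type 2 conventional and plasmacytoid dendritic cells held none in either library.

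**Figure D3:**
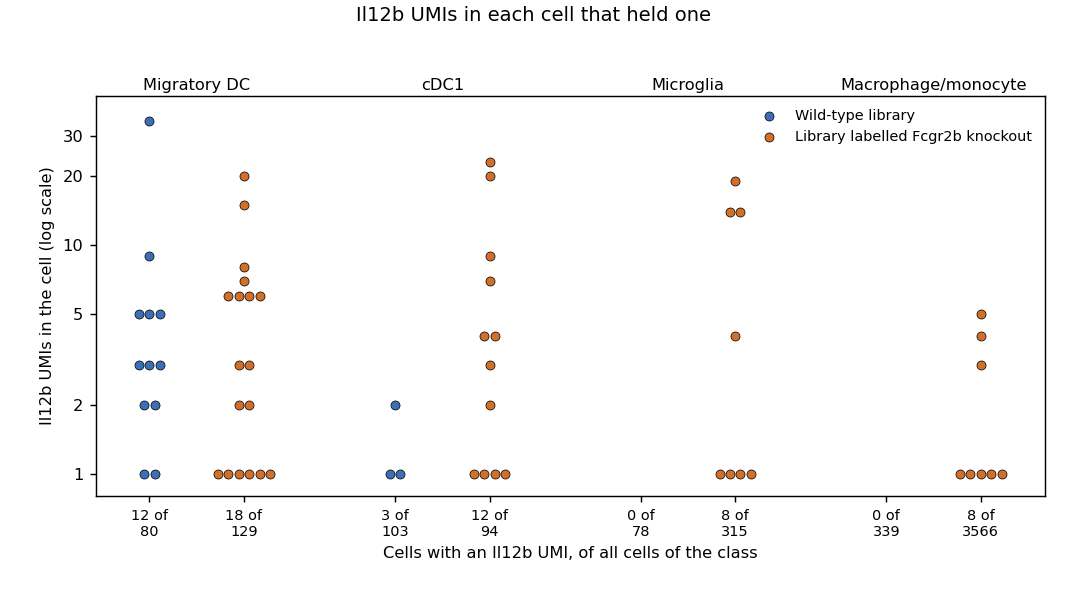
Each point is 1 cell with an Il12b UMI, with its number of Il12b UMIs on a log axis, by class and library; labels give positive cells of all cells. Migratory dendritic cells are positive in both libraries, while in type 1 conventional dendritic cells values above 2 UMIs, and in microglia all positive cells, are from the knockout-labelled library.

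Il23a encodes p19, the IL-23-specific subunit. Wild-type neutrophils held 189 CPM (112 to 299; 18 UMIs in 9 of 85 cells, at most 3 per cell), while the 51 neutrophils of the knockout-labelled library held none, which allows up to 16.2 CPM. This is at least 11.7-fold lower against 3 counts, in shallow cells with medians of 866 and 1413 UMIs, and in a class in which 33% of all genes passed 2-fold. Macrophages or monocytes held 70.4% of the Il23a UMIs of the knockout-labelled library, at 3.43 CPM (57 UMIs in 41 cells), against 1.82 CPM (2 UMIs) in the wild-type library. The ratio of 1.88 (0.497 to 15.9) spans 1. Dendritic classes held 0 to 4.37 CPM, within counting error of macrophages or monocytes, and NK cells held none.

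Il27 encodes p28, the IL-27-specific subunit, and most of its UMIs lay in macrophages or monocytes and in microglia in both libraries. Macrophages or monocytes held 15.5 CPM (9.04 to 24.8; 17 UMIs in 16 of 339 cells) in wild-type cells and 36.7 CPM (33.8 to 39.7; 609 UMIs in 515 of 3566 cells) in knockout-labelled cells. The ratio was 2.36 (1.46 to 4.09), and the shares of cells were 4.72% and 14.4%, or 2.05% and 5.34% at 1500 UMIs per cell. NK cells held no Il27 UMI in either library. Microglia held 31.0 CPM (14.2 to 58.9; 9 UMIs) and 30.6 CPM (23.0 to 39.8; 55 UMIs), a ratio of 0.985, and in the wild-type library they did not differ from macrophages or monocytes beyond their intervals.

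The Il27 ratio lay on different sides of 1 in parts of the class, but the intervals of these parts overlapped. Monocyte cluster M06, led by Vcan, F13a1 and Ifi211, held 234 of the 339 wild-type cells but 79 of the 3566 cells of the other library, and 15 of the 17 wild-type UMIs. Within M06 the level was 18.1 CPM (15 UMIs) and 12.6 CPM (6 UMIs). This ratio of 0.697 (0.222 to 1.90) was below 1, unlike that of the class as a whole, but its interval spans 1. Outside M06 it was 7.44 CPM (2 UMIs in 105 cells) and 37.4 CPM (603 UMIs in 3487 cells), a ratio of 5.02 (1.38 to 41.6). The cells outside M06 were themselves a mix: both wild-type UMIs lay in monocyte clusters M03 and M10, which held 39 and 20 of the 105 wild-type cells but 583 and 67 of the 3487 others. The macrophage clusters held no wild-type Il27 UMI, but each had only 1 to 16 wild-type cells. Upper limits of their wild-type levels ran from 124 CPM (M02) to 1616 CPM (M09), above their levels in the other library, so these zeros do not show a difference. In the knockout-labelled library Il27 was highest in macrophage clusters M01 (53.2 CPM; led by Gm15056, Ccl8 and Arg1) and M00 (48.0 CPM; led by Cd14, Gadd45b and Ier3), whose intervals overlapped each other and those of monocyte clusters M03 (40.5 CPM) and M10 (45.8 CPM). It was lower in M07 (14.7 CPM, 9.84 to 21.1), the cluster that held the macrophage Il12b. Migratory dendritic cells had 1 Il27 UMI in the wild-type library (2.96 CPM) and 18 in the other (24.0 CPM), a ratio of 8.09 (1.28 to 337), with 9 of the 18 in a single cell and more macrophage markers in that library, as given above.

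**Figure D4:**
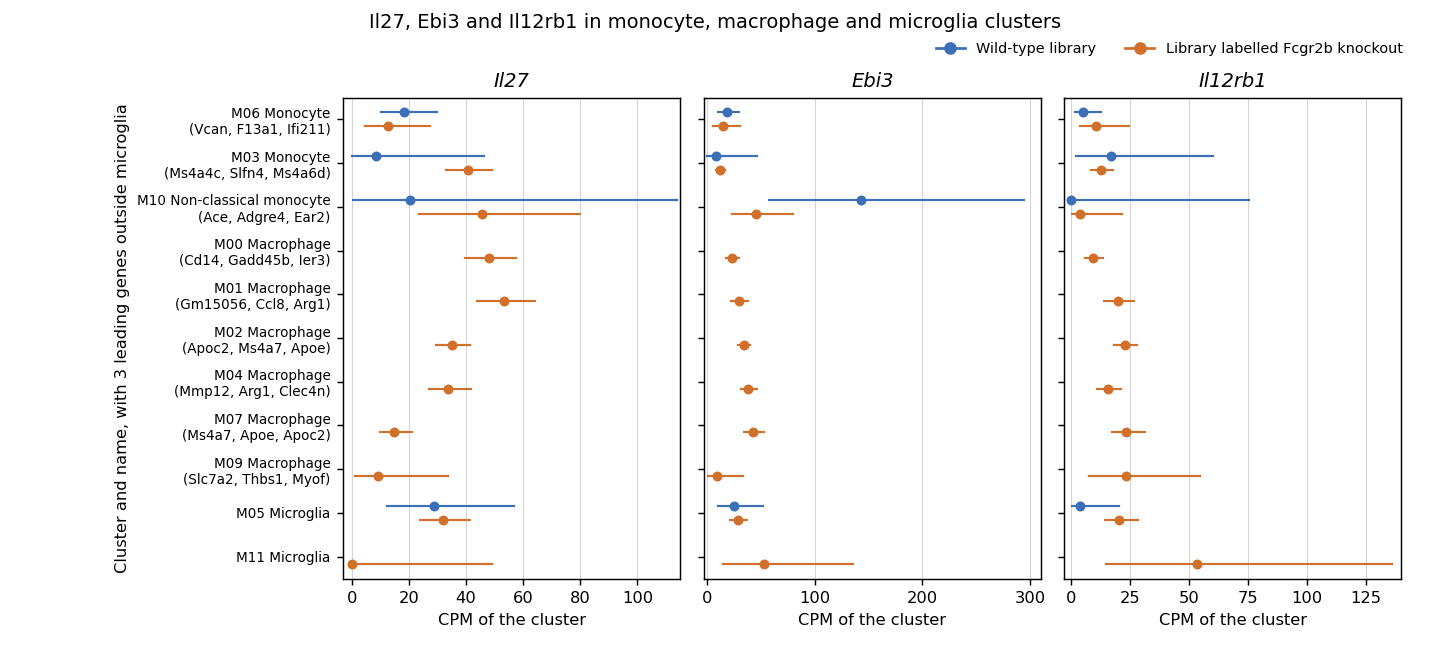
Level (CPM) of Il27, Ebi3 and Il12rb1 in each monocyte, macrophage and microglia cluster with at least 20 cells in a library, with 95% counting intervals; monocyte and macrophage cluster names are followed by their 3 leading genes. Most clusters have enough cells in the knockout-labelled library only; in M06, which holds most wild-type cells, the intervals of the libraries overlap for all 3 genes.

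Ebi3 encodes the β subunit of IL-27 and was the most widely spread of the cytokine genes. Conventional CD4 T cells held 93.9 CPM (78.5 to 112; 130 UMIs) in wild-type cells and 65.8 CPM (56.5 to 76.1; 180 UMIs) in knockout-labelled cells. The ratio was 0.700 (0.556 to 0.885). The shares of cells with a UMI were 28.8% and 28.5% at unequal depth. They were 9.85% and 10.6% at 1500 UMIs per cell, but 8.39% and 5.01% at 1000. Whether fewer cells were positive could therefore not be read from the shares. Regulatory T cells held 65.7 and 47.0 CPM, a ratio of 0.716 (0.505 to 1.02), and cycling regulatory T cells held 58.4 and 52.3 CPM. CD8 T cells (0.616 and 1.02 CPM) and NK cells (0.549 and 0 CPM) held almost none, with UMIs in 0.218% and 0.475% of CD8 T cells, at median depths of 2792 and 3863 UMIs, against 4123 and 5700 in conventional CD4 T cells.

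Among dendritic and myeloid cells, Ebi3 in migratory dendritic cells was 71.1 and 59.9 CPM, a ratio of 0.842. In cDC1 it was 38.6 and 44.6 CPM, a ratio of 1.16. In type 2 conventional dendritic cells it was 20.7 and 37.5 CPM, a ratio of 1.81 (1.05 to 3.31), the one dendritic class whose interval lay above 1. Macrophages or monocytes held 21.0 and 29.4 CPM, a ratio of 1.40 (0.922 to 2.23), with 18.1 and 14.7 CPM in M06 and 29.8 CPM in both libraries outside it. Non-classical monocytes (cluster M10) held 143 CPM (57.5 to 295) from 7 UMIs in 20 wild-type cells and 45.8 CPM (23.6 to 79.9) in the other library, with overlapping intervals. Neutrophils held 73.7 CPM (7 UMIs) and 103 CPM (19 UMIs). B cells held 7.71 CPM (3 UMIs) and 29.1 CPM (22 UMIs in 12 cells, 8 of them in 1 cell), a ratio of 3.78 (1.13 to 19.7). In the wild-type library the interval of conventional CD4 T cells overlapped those of migratory dendritic cells, regulatory T cells and neutrophils, so no single class led.

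Il12rb1 encodes the chain shared by the IL-12 and IL-23 receptors and was found across T and NK cells. The highest levels were in γδ T cells (90.9 CPM from 8 UMIs and 73.6 CPM from 9), cycling regulatory T cells (89.6 and 74.1 CPM) and regulatory T cells (78.8 CPM, 60.9 to 100, and 63.2 CPM, 52.3 to 75.8), and these 3 did not differ beyond their intervals in either library. CD8 T cells (43.7 and 40.3 CPM), mixed T cells (40.3 and 45.01 CPM) and cycling CD8 T cells (30.1 and 36.0 CPM) stood next. Intervals overlapped among these 3 classes. The CD8 T ratio was 0.922 (0.705 to 1.22), but the CD8 clusters differed in direction. Cluster L03 held 46.2 CPM (27.4 to 73.0; 18 UMIs) and 22.8 CPM (16.1 to 31.5; 37 UMIs). Cluster L07 held 62.5 CPM (9 UMIs) and 42.5 CPM, while L01 held 40.4 and 48.5 CPM. Both mixed T clusters were lower in the knockout-labelled library, at 30.5 and 14.6 CPM in L05 and 104 and 86.4 CPM in L08. Conventional CD4 T cells held 26.0 and 20.1 CPM. Regulatory T cells stood above conventional CD4 T cells in both libraries with no overlap of intervals. NK cells held 37.9 CPM (69 UMIs) and 21.0 CPM (23 UMIs), a ratio of 0.554 (0.330 to 0.899), and 0.507 in cluster L00 alone. The shares of NK cells with a UMI were closer, 7.65% and 6.15%.

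Il12rb1 was also counted in myeloid cells of the knockout-labelled library. Macrophages or monocytes held 6.39 CPM (2.57 to 13.2; 7 UMIs) and 16.9 CPM (15 to 19.0; 281 UMIs), a ratio of 2.65 (1.27 to 6.65). Outside M06 the level was 11.2 CPM (3 UMIs) and 17.1 CPM, a ratio of 1.53 (0.519 to 7.47), which spans 1. Microglia held 3.45 CPM (1 UMI) and 21.7 CPM (39 UMIs in 27 cells), a ratio of 6.28 (1.06 to 255). The shares of macrophages or monocytes with a UMI were 1.77% and 7.01% (0.341% and 2.21% at 1500 UMIs per cell), at median depths of 3147 and 3946 UMIs. In the knockout-labelled library this share was no lower than that of NK cells (6.15%), but the NK cells were shallower, with a median of 2479 UMIs. At 1500 UMIs per cell the NK shares were 4.70% and 3.94%. In the knockout-labelled library the NK share was then the higher, 3.94% (2.11 to 6.64) against 2.21% (1.73 to 2.78), with overlapping intervals. Levels in cDC1 (2.34 and 0.783 CPM) and migratory dendritic cells (0 and 3.99 CPM) were below those of macrophages or monocytes and microglia in knockout-labelled cells, while the wild-type intervals overlapped.

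Il12rb2 encodes the IL-12-specific signalling chain. NK cells had the highest level in each library, 113 CPM (97.7 to 129; 205 UMIs) and 164 CPM (141 to 190; 180 UMIs), with UMIs in 19.3% and 32.1% of cells (15.5% and 23.9% at 1500 UMIs per cell). In wild-type cells this interval met that of conventional CD4 T cells, the next class. Macrophages or monocytes, the reference, had UMIs in 1.77% and 2.30% of cells. The NK ratio was 1.46 (1.19 to 1.79) for the class, but not in the larger of the 2 NK clusters. Cluster L00, led by Klra8, Xcl1 and Klra4, held 782 and 243 cells at 110 and 108 CPM, a ratio of 0.977 (0.747 to 1.27). Cluster L09, led by Serpinb9b, Gzma and Klra1, held 15 and 131 cells at 298 CPM (7 UMIs) and 299 CPM. Within L00 the libraries were thus within counting error, while L09 had too few wild-type cells to show whether they differed. The libraries also differed in how many NK cells were in L09, and the part of this in the class ratio was not tested.

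Conventional CD4 T cells held 83.8 CPM (69.3 to 101) and 88.4 CPM (77.7 to 100) of Il12rb2, a ratio of 1.06. CD8 T cells held 40.04 CPM (30.9 to 51.0) and 55.1 CPM (49.2 to 61.4), a ratio of 1.38 (1.05 to 1.82), with UMIs in 10.2% and 17.9% of cells (3.81% and 7.21% at 1500 UMIs per cell). The direction was the same in CD8 clusters L01 (49.6 and 67.5 CPM) and L03 (20.5 and 51.2 CPM, a ratio of 2.49, 1.21 to 5.97). In L07 it was also above 1, at 20.8 CPM (3 UMIs) and 24.0 CPM, but the ratio of 1.15 (0.354 to 5.96) spans 1. Cycling CD8 T cells held 59.0 and 51.9 CPM, a ratio of 0.879, and regulatory T cells 37.0 and 49.7 CPM, a ratio of 1.34 (0.885 to 2.09). Cycling regulatory T cells, too few for a ratio, held 16.7 CPM (7.20 to 32.8; 8 UMIs) and 43.6 CPM (32.4 to 57.5; 50 UMIs). Mixed T cells held 57.9 and 99.9 CPM, but their 2 clusters went opposite ways: 53.7 and 25.6 CPM in L05, led by Tcf7, S1pr1 and Lef1, and 85.3 and 201 CPM in L08, led by Neb, Mki67 and Aspm. With at most 5% mitochondrial UMIs the mixed T ratio turned from 1.72 (1.23 to 2.46) to 0.72.

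Outside lymphocytes, migratory dendritic cells held Il12rb2 at 83.0 CPM (55.1 to 120; 28 UMIs) and 67.9 CPM (50.6 to 89.3; 51 UMIs), a ratio of 0.818, or 0.408 with cells chosen by Ccr7 and Fscn1 UMIs. The class level is as high as in conventional CD4 T cells within the intervals of either library, in a class with almost no Il12rb1. Type 2 conventional dendritic cells held 17.0 and 24.6 CPM and cDC1 8.18 and 6.26 CPM. Microglia, γδ T cells and neutrophils held no Il12rb2 UMI in either library. In γδ T cells, where Il12rb1 was high, 36 cells per library allow up to 34.1 and 24.5 CPM of Il12rb2.

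**Figure D5:**
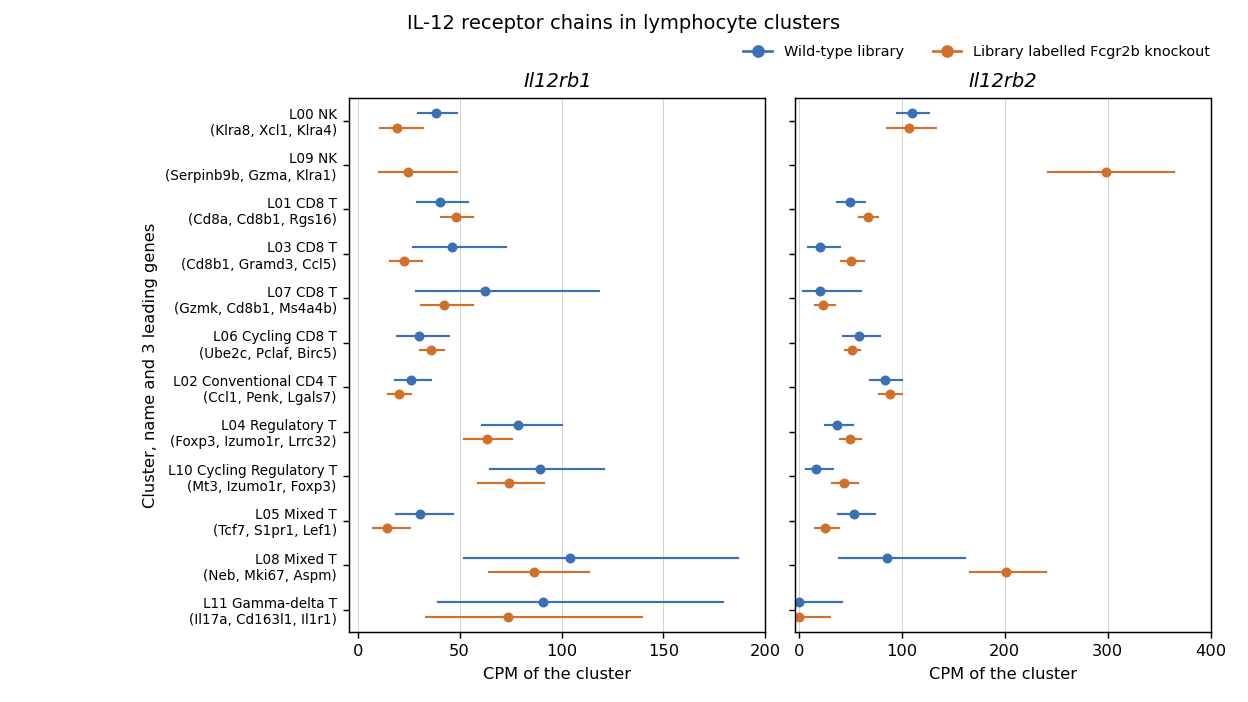
Level (CPM) of the receptor chains Il12rb1 and Il12rb2 in each lymphocyte cluster with at least 20 cells in a library, with 95% counting intervals; cluster names are followed by their 3 leading genes. For Il12rb2, NK cluster L09 of the knockout-labelled library (299 CPM) lies above L00 of either library (110 and 108 CPM), and γδ T cells are at 0.

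The partner chains complete these receptors. Il23r, the IL-23-specific chain, was at 56.8 CPM (5 UMIs) and 49.0 CPM (6 UMIs) in γδ T cells and under 10 CPM in every other class. Il27ra, the IL-27-specific chain, was at 74.5 and 57.6 CPM in CD8 T cells, 80.0 and 68.1 CPM in regulatory T cells and 38.4 and 35.6 CPM in NK cells, but 0 and 1.26 CPM in macrophages or monocytes. Il6st (gp130) was low where Il27ra was high in cytotoxic cells, at 9.86 and 15.3 CPM in CD8 T cells and 6.59 and 4.56 CPM in NK cells. It stood at 90.7 and 71.3 CPM in regulatory T cells and 89.7 and 77.8 CPM in microglia.

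Because the cytokines and receptors are pairs, cells with UMIs of both chains were counted. Both IL-12 subunits were found in 0 of 3538 cells (which allows up to 0.0848%) and in 1 of 8145 cells, a cDC1. Both IL-23 subunits were found in 0 cells and in 1 macrophage or monocyte, and p35 with EBI3 in 0 and 7 cells. The IL-27 pair was the most frequent cytokine pair, in 6 and 96 cells. Macrophages or monocytes were 2 of the wild-type cells (0.59%) and 78 of the others (2.19%, 1.73 to 2.72), and at 1500 UMIs per cell the pair was left in 0 and 9 cells over all classes. In the knockout-labelled library Ebi3 was found in 15.1% of Il27-positive and 10.8% of other macrophages or monocytes. In migratory dendritic cells 6 of 12 and 7 of 18 Il12b-positive cells also had Ebi3, against 14.7% and 21.6% of the Il12b-negative ones and the part of depth in this was not tested.

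The IL-12 receptor pair was found in 56 cells (1.58%) and 203 cells (2.49%), and in 8 and 16 cells at 1500 UMIs per cell. In cycling CD8 T cells it was found in 7.78% (7 of 90) and 21.3% (61 of 287), at median depths of 8152 and 11526 UMIs, and in cycling regulatory T cells in 7.14% (3 of 42) and 16.7% (15 of 90). At 1500 UMIs per cell these fell to 0% and 0.704% in cycling CD8 T cells and to 0% in both libraries in cycling regulatory T cells, against 0.783% and 1.21% in NK cells. In CD8 T cells it was found in 7 and 42 cells, in conventional CD4 T cells in 10 and 22, in regulatory T cells in 10 and 22, and in NK cells in 12 and 7. The IL-23 receptor pair was found in 1 and 4 cells and the IL-27 receptor pair in 33 and 114. Since fewer pairs were left at equal depth, the shares describe detection at these depths and not the share of cells with a complete receptor.

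The genes downstream of these receptors were read as lists, with the median log2 ratio (knockout-labelled over wild-type, 10 CPM added) beside that of all genes of the class. Of 10 signalling genes, none was 2-fold apart in CD8 T, conventional CD4 T or NK cells, and the medians were -0.25, -0.16 and -0.02 against -0.07, -0.06 and -0.06 for all genes. The largest ratios were those of Stat5a, a transducer of IL-2-type signals, at 59.1 and 35.4 CPM in CD8 T, 175 and 87.0 CPM in conventional CD4 T and 50.5 and 28.3 CPM in NK cells, below 1 in each. In CD8 T cells Stat3 was next (489 and 361 CPM), in conventional CD4 T cells Jak2 (307 and 237 CPM) and in NK cells the feedback inhibitor Socs1 (116 and 70.3 CPM). In regulatory T cells Stat5a passed (152 and 56.2 CPM), with a list median of -0.26 against -0.05. In migratory dendritic cells Socs3, a feedback inhibitor of STAT3, passed (88.9 and 212 CPM), with a list median of -0.25 against -0.05, while Stat4, the main transducer of IL-12, was at 471 and 298 CPM.

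Of 14 IL-12 response genes, none was 2-fold apart in CD8 T, conventional CD4 T or NK cells, with medians of -0.18, -0.05 and -0.16. Ifng, the hallmark product of IL-12 signalling, was at 389 and 631 CPM in CD8 T cells, 1267 and 2117 CPM in conventional CD4 T cells and 294 and 425 CPM in NK cells. Cish, a cytokine-induced inhibitor of receptor signalling, went the other way in the same classes, at 274 and 136, 368 and 190, and 114 and 54.7 CPM. Il18r1, a chain of the IL-18 receptor, was at 126 and 80.3 CPM in CD8 T cells and passed in regulatory T cells (135 and 60.5 CPM). In NK cells its partner chain Il18rap was at 186 and 284 CPM, and in conventional CD4 T cells the cytotoxic protease gene Gzmb was at 26.0 and 49.0 CPM. None of the 4 IL-23 response genes tested in conventional CD4 T cells passed, with a median of -0.68 against -0.06, and Il17a was at 17.3 and 4.02 CPM (24 and 11 UMIs).

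Of 8 IL-27 response genes in conventional CD4 T cells, Tigit was higher (113 and 246 CPM) and Il21 (122 and 46.1 CPM) and Maf (420 and 193 CPM) were lower, with a list median of -0.67 against -0.06. Tigit, an inhibitory receptor, also passed in CD8 T cells (75.2 and 167 CPM; list median -0.20), where the inhibitory receptor gene Lag3 was at 513 and 320 CPM, and in regulatory T cells (176 and 458 CPM; list median -0.50 over 7 genes), where Maf was at 1398 and 842 CPM. Il10, the suppressive cytokine that IL-27 can induce, was at 59.97 and 30.7 CPM in conventional CD4 T cells and 401 and 242 CPM in regulatory T cells, and did not pass in either.

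Of 16 genes known to induce or restrain these cytokines, 15 were tested in cDC1 and Nfil3, a transcription factor of dendritic cell development, was lower (164 and 62.6 CPM), with a median of -0.07 against -0.04. Tlr9, a sensor of unmethylated DNA, was at 4.68 and 13.3 CPM in the same cells. None passed in type 2 conventional dendritic cells, where Nfkb1 (474 and 239 CPM) and Batf3 (70.5 and 33.8 CPM) had the largest ratios. In migratory dendritic cells Zeb2 passed (26.7 and 78.6 CPM), with a list median of -0.10 over 13 genes, and Nfkb1 was at 779 and 450 CPM. In macrophages or monocytes Il15 was lower (66.6 and 13.8 CPM) and Nfkb1 was at 481 and 275 CPM. Monocyte cluster M06 held 234 of the 339 wild-type cells of this class but 79 of the 3566 others. Its macrophage markers summed to 3880 and 20156 CPM, and the part of this mix in the Il15 and Nfkb1 values was not tested. In microglia Tlr9 (1 and 31 UMIs) and Il18 (13.8 and 37.8 CPM) were higher and Cd40 (41.4 and 13.9 CPM) was lower. None of 13 other genes of migratory dendritic cells passed in that class (median -0.19 against -0.05); the chemokine Ccl17 was at 83.0 and 162 CPM and Cd200 at 782 and 463 CPM.

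The genes whose levels most resembled each member were ranked by Pearson's r of log2(CPM + 10) over 34 class and library points among 6950 genes. The points share libraries and depth, so r is a description. Il12b was most like Bcl2l14 (0.92), Mab21l3 (0.91) and Nostrin (0.89), followed by Lima1 and Tspan33. Il27 was most like Cd302 (0.89), Slc11a1 (0.88) and Vcam1 (0.87), followed by Tlr2 and Mtus1. Ebi3 had no close match, the first 5 being Dusp16 (0.70), Il1r2 (0.69), C1qtnf12, Cystm1 and Rel. Il12rb1 was most like Cysltr2 (0.88) and Arhgap10 (0.87), followed by Acsbg1, Tnik and Rora, and Il12rb2 most like Serpinb6b (0.90) and Cblb (0.82), followed by Adora2a, Prf1 and Serpinb9. Il23a was most like Gm15728 (0.92) and Clec12b (0.90), followed by Gm28809, Csf3 and Dlk1, and its highest point was wild-type neutrophils, and Il12a had too few UMIs to be ranked. Among the 6 ranked members r ran from -0.43 (Il27 and Il12rb1) to 0.35 (Il27 and Ebi3), and was 0.28 for the receptor chains Il12rb1 and Il12rb2.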

How the data were processed

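UMI counts per gene and barcode were deposited by the authors for 2 libraries; they were made with Cell Ranger 6.1.2, per the file headers, on mm10 (GRCm38), per the submitters' processing notes. The files do not name the annotation release, and every deposited barcode held at least 500 UMIs. Barcodes with under 200 genes or over 10% mitochondrial UMIs were removed, as were those with the highest simulated-doublet scores (0.8% of barcodes per 1000), which took 119 and 676 barcodes. Cells were clustered on 2000 variable genes and 30 principal components (Leiden, resolution 1; leidenalg 0.10.2, igraph 0.11.9, scikit-learn 1.9.0). A class name needed 3 markers at 50 CPM or more and a log2 ratio of 1. Counts were summed per class and library; intervals (scipy 1.17.1) are exact Poisson for CPM, Clopper-Pearson for shares and conditional for ratios, and were checked on simulated counts. Bounds against 0 UMIs use 3 counts per library. Shares were also taken with cells thinned to 1500 or to 1000 UMIs, shallower cells being left out. With 1 library per genotype no p-value is given. The text names all 7 genes, 3 partner chains, of each list the genes with the largest log2 ratios, and for each member with at least 100 UMIs the most alike genes. Clusters and positive cells described beyond that rule were chosen after their values were seen. The members and lists were chosen with earlier results of these data known. Alternatives covered filters, doublets, scaling, clustering, gates, thinning and added counts. Fewer cells with a transcript and less RNA per cell cannot be told apart from a summed level alone.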

Additional observations from a re-analysis of the deposited data

Results flagged for a closer look

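For 3 genes the classes pointed opposite ways: the ratio of the knockout-labelled to the wild-type library lay below 1 in some and above 1 in others, with counting intervals that excluded 1. The difference between classes was not tested, since each genotype is 1 library. Il12b was at 0.546 in migratory dendritic cells but at 12.7 in type 1 conventional dendritic cells and at least 2.95 in microglia. The migratory direction did not hold under other choices: the ratio was 0.80 without the highest cells, 1.18 with a marker gate and 1.49 (0.928 to 2.47) in class cells with both markers. Ebi3 was at 0.7 in conventional CD4 T cells but at 1.81 (1.05 to 3.31) in type 2 conventional dendritic cells and 3.78 (1.13 to 19.7) in B cells. The B cell value rests on 3 and 22 UMIs, 8 of the 22 in 1 cell. Il12rb1 was at 0.554 in NK cells but at 2.65 in macrophages or monocytes and 6.28 in microglia. The microglia value rests on 1 wild-type UMI (1.06 to 255). Outside monocyte cluster M06 the macrophage or monocyte ratio was 1.53 (0.519 to 7.47), which spans 1.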

How the results depend on the processing

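No paired analysis was possible because the labels give 1 library per genotype, so leaving out a replicate could not be done either. Across 40 ratios and 378 recomputed values, 362 stayed within the reported counting interval, 12 left it and 4 left it by crossing to the other side of 1 from an interval that excluded 1, while 344 lay on the same side of 1 as reported. These 4 were Il27 in macrophages or monocytes, at 0.697 in cluster M06 alone, Il12b in migratory dendritic cells, at 1.18 with a marker gate, Il12rb2 in NK cells, at 0.977 in cluster L00 alone, and Il12rb2 in mixed T cells, at 0.72 with at most 5% mitochondrial UMIs. Il12b moved to 0.80 in migratory dendritic cells without the highest cells and to 3.82 in cDC1 without doublet removal. The count of pairs past 2-fold was 10 with 1 CPM added and 2 with 50 CPM added, and 4 to 6 under the other settings. With at most 5% mitochondrial UMIs Il12rb1 in mixed T cells moved to 0.493, and Il12rb2 in migratory dendritic cells to 0.408 with the gate. Of the 5 genes most like a member, Spearman correlation kept 3 for Il12rb1 and Il12rb2, 2 for Il12b and Ebi3, 1 for Il27 and 0 for Il23a among its first 5. Leaving out the highest cells, cDC1 with Ccr7, and reading cluster L00 alone were chosen after seeing the data. A marker gate for cDC1 gave no value because under 50 cells per library passed it. Without doublet removal and at resolution 2, some macrophage clusters stayed unnamed. Depth limits the wild-type library most: Il12a, Il23a and Il27 had 18, 39 and 33 UMIs there.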

Other observations

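Among barcodes removed as likely doublets, 1 barcode of the knockout-labelled library held 66 Il12b UMIs, more than any kept cell; when doublets were kept it fell among regulatory T cells, and it also held 34 Ccr7 UMIs. In that library the removed barcodes grouped with migratory dendritic cells held 17 Il12b UMIs in 4 cells. Monocyte cluster M06 held Il12rb2 at 4.83 CPM (4 UMIs) in wild-type cells and 33.7 CPM (16 UMIs in 13 of 79 cells) in knockout-labelled cells, a ratio of 6.97 (2.25 to 28.7), whereas outside M06 the levels were 7.44 and 4.90 CPM. Basophils, of which there were 104 and 7 cells, held 5 Il23a UMIs in the wild-type library (24.2 CPM, 7.84 to 56.4). Mast cells held 8 Ebi3 UMIs there (23.2 CPM).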
